A study of Homo sapiens with 6 samples.

Results

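RNA polymerase III is the nuclear enzyme that makes transfer RNAs, the smallest ribosomal RNA, the U6 spliceosomal RNA and other short RNAs. Its own subunits are encoded by ordinary messenger RNAs, some of which serve only this enzyme while others are shared with RNA polymerases I and II. MAF1 is not a subunit but the conserved repressor that binds the enzyme when growth signalling, mainly through mTOR, is low. The genes described here are 8 subunits particular to polymerase III (POLR3A, POLR3B, POLR3C, POLR3D, POLR3E, POLR3F, POLR3GL and POLR3K) and MAF1, chosen by name, which makes 9 of the 25420 genes in the tables. All 9 were found, each with 1 annotated 3′ UTR.

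The messenger RNAs were measured by SLAM-seq in MOLM-13 cells, an established human line of acute myeloid leukaemia. In this method 4-thiouridine (4sU) enters new RNA and, once alkylated, is read as C, so that T > C reads mark newly synthesized transcripts and all reads mark total mRNA. C646-treated cells received 10 µM C646, an inhibitor of the acetyltransferases CBP and p300, for 2 h, and the DMSO control received the solvent. Cells of both groups carried 100 µM 4sU for the last 60 min, and each group had 3 libraries from this 1 cell line. The question was how inhibition of CBP and p300 changed new and total RNA. No source states whether the replicates were separate cultures, so the p-values measure the spread between these libraries, which may be technical.

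The libraries held 7252597 to 10225448 reads on 3′ UTRs, of which 477824 to 833410 were T > C reads. All 11 MOLM-13 markers were detected, and HBB, CD3E, KRT19 and COL1A2 were at 0 in every library. The markers of other cell types summed to 3.50 to 6.43 CPM in the DMSO libraries and to 10.4 to 11.8 CPM in the C646 libraries, against 3793 to 4283 CPM for the MOLM-13 markers over the 6 libraries, and most of the difference was COL1A1. The part of this difference in the results was not tested. No library without 4sU was among those used, so the rate of T > C reads from sequencing error was not measured here.

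Newly synthesized transcripts of 4 polymerase III genes fell in C646-treated cells, those of POLR3A, POLR3B, POLR3D and POLR3K, with log2 fold changes from −1.95 to −1.12. Of the 9 genes, 8 had enough T > C reads for a test. A fall here means a log2 fold change of −1 or less at an adjusted p of 0.01 or less, and 33.0% of the 7722 genes tested met it. All 8 fold changes were below 0, with a median of −0.98 beside a median of −0.83 over all genes tested. With no minimum fold the same 4 genes were lower at this adjusted p, against 38.0% of all genes tested. No gene of the set was called higher, where the share over all genes was 2.97%. In 5 of the 8 genes every C646 library lay below every DMSO library, a pattern seen in 55.9% of all genes tested. Over whole libraries the T > C share was 8.74% to 8.86% in DMSO and 6.34% to 6.71% in C646. Whether both groups took up 4sU equally was not tested. In this bulk measurement fewer cells with these RNAs and less RNA per cell cannot be told apart.

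**Figure D1:**
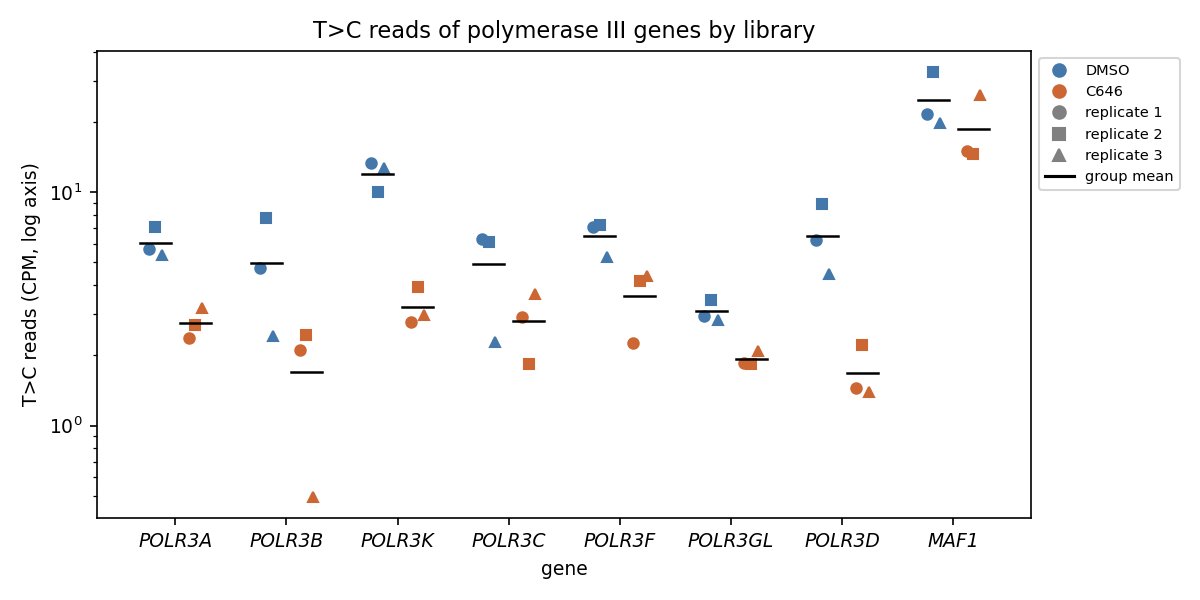
T > C reads in CPM (log axis) of the 8 tested genes in each library, DMSO in blue and C646 in orange, with replicates 1, 2 and 3 as circles, squares and triangles and group means as black bars. The groups do not overlap for POLR3A, POLR3D, POLR3F, POLR3GL and POLR3K, and the gap is widest for POLR3K, at 9.98 to 13.4 against 2.78 to 3.92 CPM.

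POLR3A and POLR3B encode the largest and the second largest subunit, which together form the catalytic centre. POLR3A stood at 5.69, 7.07 and 5.39 CPM of T > C reads in DMSO replicates 1, 2 and 3 and at 2.38, 2.70 and 3.17 CPM in C646 replicates 1, 2 and 3. The groups did not overlap, and the values rest on 40 to 54 T > C reads per DMSO library and 18 to 32 per C646 library. POLR3A fell 2.18-fold, with a log2 fold change of −1.12 ± 0.34 (SE, n = 3 per group, adjusted p = 0.00644). The call was lost without any of 5 libraries, with adjusted p-values of 0.0208, 0.0391 and 0.0151 without DMSO replicates 1, 2 and 3 and of 0.0195 and 0.0178 without C646 replicates 1 and 2, while the log2 fold change stayed between −1.24 and −1.003.

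POLR3B stood at 4.74, 7.76 and 2.42 CPM of T > C reads in DMSO and at 2.12, 2.45 and 0.496 CPM in C646. The groups overlapped, since DMSO replicate 3 was lower than C646 replicate 2, and C646 replicate 3 held only 5 T > C reads. The log2 fold change was −1.59 ± 0.49 (adjusted p = 0.00695). Its call was lost without DMSO replicate 1 (adjusted p = 0.0229), DMSO replicate 2 (adjusted p = 0.111) or C646 replicate 3 (adjusted p = 0.0336, log2 fold change −1.11). It was also lost with all filtered reads (−1.39, adjusted p = 0.0203) and in the DESeq2 Wald test (−1.59, adjusted p = 0.0108). Scaling on the T > C reads lost it too, at −0.73 with TMM (adjusted p = 0.270) and −0.77 with DESeq2 size factors (adjusted p = 0.241).

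POLR3K encodes a small subunit that works in RNA cleavage and in termination. It held the most T > C reads of the 8 subunits of the set, with 127, 72 and 94 in DMSO and 21, 32 and 30 in C646. These correspond to 13.4, 9.98 and 12.7 CPM in DMSO and 2.78, 3.92 and 2.98 CPM in C646, so that the lowest DMSO library was above the highest C646 library by more than the whole range within either group. POLR3K fell 3.72-fold, with a log2 fold change of −1.90 ± 0.28 (adjusted p = 2.3e-06). The call was kept without any 1 library, with a log2 fold change from −2.05 to −1.80 and a highest adjusted p of 0.000114.

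POLR3C, POLR3F and POLR3GL encode the subcomplex that contacts the initiation factors, and none of the 3 passed the test. POLR3C stood at 6.32, 6.10 and 2.29 CPM of T > C reads in DMSO and at 2.91, 1.84 and 3.67 CPM in C646. DMSO replicate 3 was below 2 of the C646 libraries, and the log2 fold change was −0.80 ± 0.40 (adjusted p = 0.0886). POLR3F stood at 7.06, 7.21 and 5.25 CPM in DMSO and at 2.25, 4.17 and 4.36 CPM in C646. Its groups did not overlap, and its log2 fold change of −0.84 ± 0.33 had an adjusted p of 0.0311. POLR3GL, the form of this subunit found in most differentiated cells, stood at 2.95, 3.47 and 2.83 CPM in DMSO and at 1.85, 1.84 and 2.08 CPM in C646. Although these groups did not overlap either, only 14 to 28 T > C reads per library stood behind the log2 fold change of −0.67 ± 0.44 (adjusted p = 0.194), whose 95% confidence interval ran from −1.57 to 0.23.

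POLR3D and POLR3E encode a pair of subunits that act together in initiation and termination. POLR3D stood at 6.22, 8.87 and 4.44 CPM of T > C reads in DMSO and at 1.45, 2.21 and 1.39 CPM in C646. Every DMSO library was above every C646 library, with 33 to 64 against 11 to 18 T > C reads. POLR3D fell 3.86-fold, with a log2 fold change of −1.95 ± 0.39 (adjusted p = 0.000121), and the call was kept without any 1 library. It was lost with TMM on the T > C reads (−1.10, adjusted p = 0.0313) and with DESeq2 size factors from them (−1.14, adjusted p = 0.0256). POLR3E could not be tested, with 1 read in DMSO replicate 1, no read in the other 5 libraries and no T > C read. A count of 0 allows up to 3 reads, which is 0.298 to 0.416 CPM in these libraries for counting error alone, and it limits only reads on the annotated 3′ UTR.

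MAF1 held the most T > C reads of the 9 genes. It stood at 21.7, 32.7 and 19.8 CPM in DMSO and at 15.1, 14.6 and 26.1 CPM in C646. C646 replicate 3 was above 2 of the DMSO libraries, so the groups overlapped. The log2 fold change of −0.40 ± 0.23 did not pass the test (adjusted p = 0.129). The 95% confidence interval, from −0.86 to 0.06, did not reach a log2 fold change of −1. With 1 library left out the log2 fold change ran from −0.73 without C646 replicate 3 to −0.15 without DMSO replicate 2, with −0.26 without C646 replicate 1 and −0.25 without C646 replicate 2.

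The genes were set against each other by the log2 ratio of their T > C reads within each library, over 28 pairs. In 9 of the 28, which share genes, the groups did not overlap, where 44.4% of all pairs of tested genes did not. For the 2 pairs with the largest change, the ratio of POLR3D to MAF1 was lower by 1.46 on the log2 scale in C646, from −1.94 ± 0.18 to −3.40 ± 0.75 (SD, n = 3), and the ratio of POLR3K to MAF1 was −1.01 ± 0.60 in DMSO and −2.47 ± 0.62 in C646. For these and the other pairs without overlap the two-sided exact permutation test gave p = 0.1, the smallest that 3 libraries against 3 allow (0.311 adjusted over the 28 pairs). The pairs therefore could not pass a threshold of 0.05, and no difference between the responses of these genes was shown.

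Total mRNA moved less. No polymerase III gene passed the test in all reads, where 1.88% of the 10851 genes tested were called lower and 5.89% higher. The 8 log2 fold changes ran from −0.61 to 0.10 with a median of −0.36, beside a median of −0.00 over all genes tested, and 6 of them were below 0. With no minimum fold, 0 of the 8 passed an adjusted p of 0.01 in edgeR's quasi-likelihood test, where 6.29% of all genes were lower by that rule. At an unadjusted p under 0.05 there were 4, all of them lower, beside 20.6% of all genes lower by that rule and 4627 of the 10851 genes in either direction. The DESeq2 Wald test called 0, where it called 2.13% of all genes lower. In 4 genes (POLR3A, POLR3B, POLR3D and POLR3F) every C646 library lay below every DMSO library, as in 23.1% of all genes tested.

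POLR3A stood at 40.3, 51.7 and 39.6 CPM of all reads in DMSO and at 31.6, 37.2 and 30.2 CPM in C646 (log2 fold change −0.41 ± 0.17, adjusted p = 0.0739). POLR3B stood at 22.7, 26.8 and 23.4 CPM in DMSO and at 17.2, 20.7 and 12.3 CPM in C646 (log2 fold change −0.54 ± 0.21, adjusted p = 0.0606). POLR3D stood at 32.3, 40.2 and 25.3 CPM in DMSO and at 20.6, 25.1 and 18.3 CPM in C646 (log2 fold change −0.61 ± 0.20, adjusted p = 0.0311). These genes of the catalytic centre and of the initiation pair thus had non-overlapping but close groups in total mRNA. POLR3F stood at 34.2, 31.8 and 27.3 CPM in DMSO and at 25.3, 23.5 and 19.6 CPM in C646 (log2 fold change −0.45 ± 0.17, adjusted p = 0.0621).

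For POLR3K, which fell in newly synthesized transcripts, all reads stood at 110, 85.0 and 119 CPM in DMSO and at 94.9, 88.0 and 71.6 CPM in C646. DMSO replicate 2 was below 2 of the C646 libraries, and the log2 fold change was −0.30 ± 0.16 (adjusted p = 0.156). POLR3C stood at 42.1, 50.3 and 38.0 CPM in DMSO and at 41.0, 32.6 and 32.7 CPM in C646 (log2 fold change −0.30 ± 0.17, adjusted p = 0.194).

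For POLR3GL and MAF1 the groups overlapped in total mRNA and the fold changes were near 0. POLR3GL stood at 47.6, 47.4 and 48.1 CPM in DMSO and at 40.1, 53.9 and 50.7 CPM in C646, with a log2 fold change of 0.02 and a 95% confidence interval from −0.31 to 0.34. MAF1 stood at 238, 339 and 259 CPM in DMSO and at 244, 286 and 367 CPM in C646, with a log2 fold change of 0.10 and an interval from −0.26 to 0.47. The highest MAF1 value in all reads was that of C646 replicate 3, and without that library the log2 fold change was −0.07. Neither sign is fixed, since that of POLR3GL turned too, to −0.07 without C646 replicate 2, −0.02 without C646 replicate 3 and −0.00 with plain totals.

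**Figure D2:**
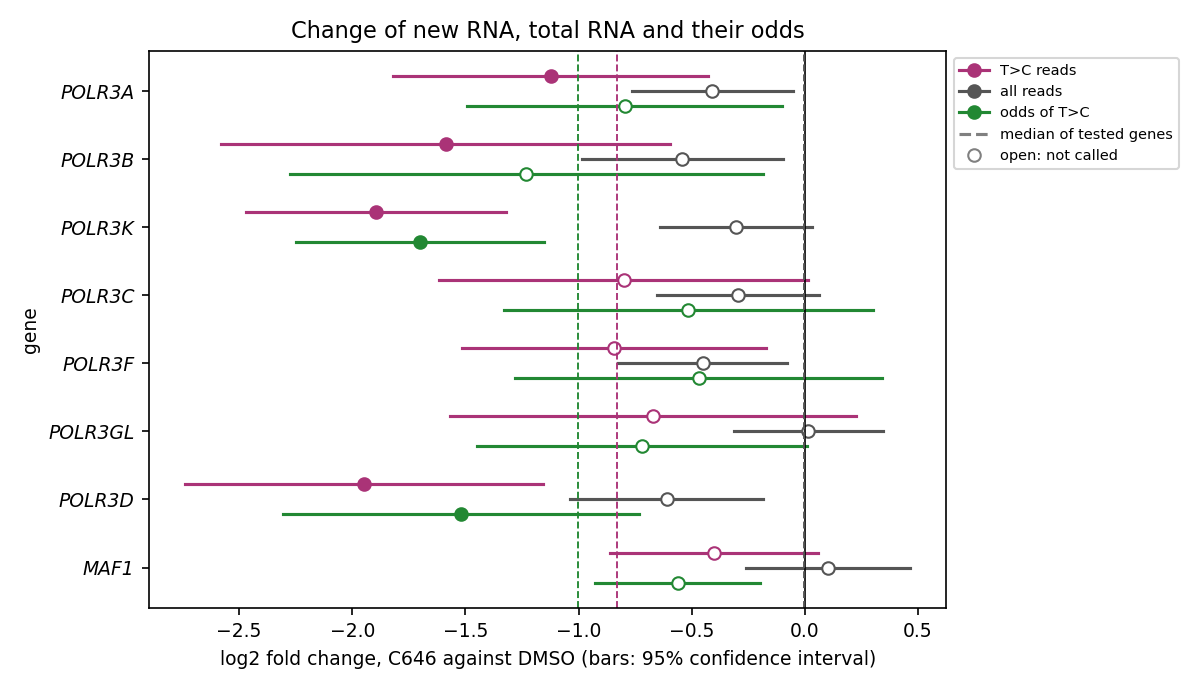
Log2 fold changes of C646 against DMSO with 95% confidence intervals (bars) for T > C reads, all reads and the odds of a T > C read, with filled points for called genes and dashed lines at the medians of all tested genes. POLR3D and POLR3K are called in T > C reads and in the odds, POLR3A and POLR3B in T > C reads, and no gene in all reads. With T > C reads scaled on themselves MAF1, POLR3C and POLR3GL turn to values above 0.

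Whether new and total RNA of a gene changed unequally was tested from the odds of a T > C read within each library, which needs no scaling between libraries. Of the 8 genes, 2 fell (POLR3D and POLR3K), where 38.3% of the 7722 genes tested did. The log2 changes in odds ran from −1.70 to −0.47 with a median of −0.76, above the median of −1.004 over all genes tested. In 5 genes every C646 share lay below every DMSO share, against 64.5% of all genes.

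The T > C share of POLR3K reads was 12.2%, 11.7% and 10.6% in DMSO and 2.92%, 4.46% and 4.16% in C646, a log2 change in odds of −1.70 ± 0.27 (adjusted p = 1.4e-05). POLR3D reads were T > C reads in 19.3%, 22.1% and 17.6% of cases in DMSO and in 7.05%, 8.78% and 7.57% in C646, a log2 change of −1.52 ± 0.38 (adjusted p = 0.00176). In both genes the shares did not overlap between groups. The POLR3D call was lost without DMSO replicate 1 (adjusted p = 0.0103) or DMSO replicate 2 (adjusted p = 0.0169).

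MAF1 shares were 9.12%, 9.66% and 7.65% in DMSO and 6.19%, 5.10% and 7.11% in C646. They did not overlap, unlike the MAF1 levels, and the log2 change in odds of −0.56 ± 0.18 had an adjusted p of 0.00882 but was too small for a call. With no minimum fold, 3 of the 8 genes were lower at an adjusted p of at most 0.01 (POLR3D, POLR3K and MAF1), against 44.8% of all genes tested. MAF1 kept an adjusted p of at most 0.01 without C646 replicate 3 but not without any of the other 5 libraries, where its adjusted p-values ran from 0.0113 to 0.0563. The shares of POLR3F spanned 8.90% to 22.2% in C646 and 19.2% to 22.7% in DMSO, and the log2 change in odds of −0.47 ± 0.39 had an adjusted p of 0.296. It was −0.08 without C646 replicate 1 and −0.80 without C646 replicate 3.

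A level that can be compared between genes is the conversion rate, the share of covered T positions that were read as C, since it is counted per T base. In DMSO it was highest for POLR3F at 1.54% ± 0.18 (SD, n = 3) and POLR3D at 1.41% ± 0.044, followed by POLR3A at 1.13% ± 0.095, POLR3B at 1.11% ± 0.53 and POLR3C at 1.05% ± 0.63, with POLR3K at 0.776% ± 0.15, MAF1 at 0.537% ± 0.056 and POLR3GL at 0.326% ± 0.12. In this order POLR3F and POLR3D overlapped over their libraries, as did POLR3A with POLR3B, POLR3B with POLR3C and POLR3C with POLR3K. Every POLR3D library lay above every POLR3A library, every POLR3K library above every MAF1 library, and every MAF1 library above every POLR3GL library. The median over all tested genes was 0.889% in DMSO and 0.399% in C646, and in DMSO every library of POLR3A, POLR3D and POLR3F lay above that median and every library of MAF1 and POLR3GL below it.

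In C646-treated cells the POLR3D rate was 0.376%, 0.442% and 0.330%, a mean of 0.383%, and the POLR3K rate was 0.0973%, 0.134% and 0.193%, a mean of 0.141%. These were 0.272 and 0.182 times the DMSO means. The groups did not overlap for 4 of the 8 genes (POLR3B, POLR3D, POLR3K and MAF1), a pattern in 65.6% of all genes with a rate, and the exact permutation test gave p = 0.1 for each, the smallest possible. POLR3F kept a mean of 1.10% ± 0.55, with C646 replicates 2 and 3 at 1.36% and 1.48% and C646 replicate 1 at 0.468%.

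The ratio of conversions to T > C reads was also lower for POLR3D and POLR3K. It divides 2 separately counted totals, and 585 to 739 entries per library held fewer conversions than T > C reads. Over whole libraries this ratio was 2.00 to 2.11 in DMSO and 1.87 to 1.91 in C646. POLR3K had 2.76, 1.99 and 2.40 conversions per T > C read in DMSO and 1.14, 1.03 and 1.67 in C646. POLR3D had 1.88, 1.44 and 1.94 in DMSO and 1.27, 1.17 and 1.00 in C646. These were the only 2 of the 8 genes whose groups did not overlap in this measure, as 24.9% of all genes did in this direction.

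**Figure D3:**
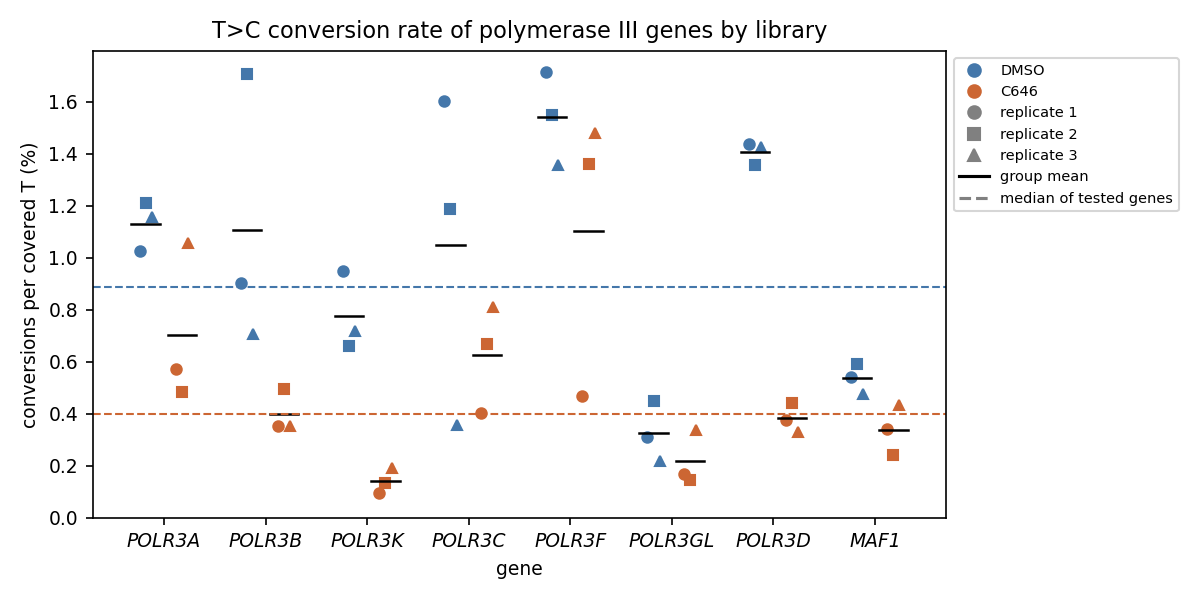
Conversion rate per covered T in percent of the 8 genes in each library, with replicates as circles, squares and triangles, group means as black bars and dashed lines at the medians of all tested genes (0.889% in DMSO, 0.399% in C646). The C646 libraries of POLR3K and POLR3D lie far below their DMSO libraries, those of POLR3B and MAF1 lie below by less, and those of POLR3A, POLR3C, POLR3F and POLR3GL overlap.

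The promoters of the genes were searched for known motifs in the RefSeq sequences of GRCh38.p14, 250 bases before to 50 bases after each annotated start, on both strands. Entries were found for 7 of the 9 genes, those other than POLR3D and MAF1. The letters were CCGGAAG for ETS factors, CACGTG for the E-box read by MYC and USF factors, GCGC, AT and GCGC in a row for NRF1, CCAAT for NF-Y, TATAAA for the TATA box and GGTTCGA, any base and TCC for the B box, which in tRNA genes is the site of the polymerase III factor TFIIIC. The windows below, each of 30 bases in the direction of the gene, are shown because they hold the motifs of called genes (POLR3A, POLR3B, POLR3K), the same motifs in genes not called (POLR3C, POLR3GL) and the rarest match (POLR3E). Capitals mark the motif, and ATTGG is CCAAT on the other strand.
POLR3A, ETS, chr10:78029589-78029618, minus strand: aaaaaaggcatgCCGGAAGtctctcttgac
POLR3A, E-box, chr10:78029533-78029562, minus strand: agaggaagcggaCACGTGggacactctacg
POLR3C, ETS, chr1:145824163-145824192, plus strand: gaaagagcgtccCCGGAAGccgccgaaact
POLR3C, E-box, chr1:145823992-145824021, plus strand: gcccgcgtcggtCACGTGagttggccaggc
POLR3B, NRF1, chr12:106358043-106358072, plus strand: ggcggtttgtGCGCATGCGCcgggcttctg
POLR3K, NF-Y, chr16:53655-53684, minus strand: aaggctgccaggaCCAATgtgagctcgagg
POLR3GL, NF-Y, chr1:145964631-145964660, plus strand: cggcttctcctgcATTGGccgagaaaactc
POLR3E, B box, chr16:22297190-22297219, plus strand: cgggggcgtgGGTTCGAATCCcaccgctgc

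The E-box was found in 3 of the 7 genes (POLR3A, POLR3C and POLR3E) and in 8.77% of the 27305 genes with a promoter window. The ETS motif was found in POLR3A and POLR3C and in 12.2% of all genes. Of these 2 genes POLR3A was called and POLR3C was not, while the ratio of their T > C reads overlapped between the groups. A link between the motifs and the changes was not tested. CCAAT was found in 4 of the 7 genes (POLR3B, POLR3C, POLR3GL and POLR3K) against 39.7% of all genes, and it too occurred in called genes and in genes not called. The NRF1 motif of POLR3B was found in 1.52% of genes, and the B box of POLR3E in 27 genes, or 0.0989%. No TATAAA was found in the 7 genes, against 14.0% of all genes. A gene counts once when any of its windows holds the motif. A match describes the letters and not a bound site.

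The 3′ UTRs on which the reads were counted overlapped an annotated UTR of that gene in GENCODE (release 44) for all 9 genes. Exon numbers are those of the gene's canonical transcript. On GRCh38, the counted interval of POLR3A was chr10:77975149-77977477 (minus strand, exon 31), that of POLR3B chr12:106509550-106510198 (plus strand, exon 28), that of POLR3D chr8:22250519-22251167 (plus strand, exon 9) and that of POLR3K chr16:46979-47429 (minus strand, exon 3). That of MAF1 was chr8:144107110-144107612 (plus strand, exon 8). POLR3C (chr1:145842421-145844401) and POLR3GL (chr1:145978448-145978848), both on the plus strand, are neighbours on chromosome 1, with 134046 bases between their intervals. POLR3F was counted at chr20:18483559-18484648 and POLR3E at chr16:22333701-22335103, both on the plus strand. No other counted interval overlapped any of the 9. Lengths ran from 401 to 2329 bases, and T made up 20.7% of bases in MAF1 and up to 33.9% in POLR3K, against a median of 29.7% over genes tested. The polyadenylation signal AATAAA stood in the last 50 bases of 6 of the 9 intervals, against 64.7% of tested genes, and not in those of POLR3B, POLR3K and POLR3E.

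Of the subunits particular to the enzyme outside the set, CRCP belongs to its stalk, and POLR3G is the form of the POLR3GL subunit found in stem cells and many tumours. CRCP fell, from 15.4, 11.6 and 11.2 CPM of T > C reads in DMSO to 3.83, 5.39 and 5.06 CPM in C646 (log2 fold change −1.42 ± 0.26, adjusted p = 4.77e-05), and the groups did not overlap. Its call was lost with TMM on the T > C reads (log2 fold change −0.57, adjusted p = 0.0911) and with DESeq2 size factors from them (−0.61, adjusted p = 0.0712). POLR3G held 21, 19 and 5 T > C reads in DMSO and 3, 3 and 1 in C646, too few for a test. In all reads neither was called, with log2 fold changes of −0.65 for CRCP and −0.36 for POLR3G. CRCP stood at 43.7, 35.2 and 43.4 CPM of all reads in DMSO and at 26.6, 24.8 and 26.8 CPM in C646. These groups did not overlap, with C646 below DMSO, a pattern in 23.1% of all genes tested.

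The enzyme's partners were taken as 6 lists of 55 genes, of which 43 could be tested in T > C reads, and 20 fell while 1 was called higher (median log2 fold change −1.10), beside 33.0% lower, 2.97% higher and a median of −0.83 over all genes tested. At 3 to 18 tested genes a list, such counts are coarse, and no list is set apart from that share by a test. Among the subunits shared with the other polymerases 4 of 7 fell (POLR1C, POLR2E, POLR2F and POLR2L), from −3.03 for POLR1C, a subunit of polymerases I and III, to −0.04 for POLR2H, found in all the nuclear polymerases. Of the initiation factors, 1 of 3 tested genes of TFIIIB and TFIIIA fell, namely GTF3A (log2 fold change −1.35, adjusted p = 0.000481), the factor for the small ribosomal RNA, whose call was lost with TMM on the T > C reads (−0.49, adjusted p = 0.234) and with DESeq2 size factors from them (−0.53, adjusted p = 0.196), while BRF2, used at U6-type promoters, stood at 0.19 (adjusted p = 0.412). In TFIIIC 2 of 6 fell (GTF3C2 and GTF3C5, the latter by 2.10 on the log2 scale), and GTF3C3, at 0.84 with an adjusted p of 0.00778, was too small a change for a call. In the list of SNAPc and its activators, which serve the U6-type promoters, 2 of 6 fell (SNAPC2 and SNAPC4), with SNAPC4 at −2.71 and SNAPC1 at −0.11.

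Of the proteins that bind, cut or join polymerase III products 10 of 18 fell, with a median of −1.58. RPP25, a subunit of the tRNA-trimming ribonuclease P, stood at 122, 67 and 74 T > C reads in DMSO and at 8, 9 and 14 in C646 (log2 fold change −3.15 ± 0.34, adjusted p = 1.09e-08). TSEN15, a subunit of the tRNA splicing endonuclease, went the other way, with 5, 1 and 5 T > C reads in DMSO and 53, 73 and 108 in C646 (log2 fold change 4.25). It passed the filter on low values only through the C646 libraries, so its call in T > C reads is no support for a difference. Likewise, SNAPC4 and the polymerase I subunits POLR1A and POLR1E were above that filter in DMSO libraries only. TSEN15 was called higher in all reads, at 6.01, 3.47 and 5.39 CPM in DMSO and 29.1, 36.4 and 56.7 CPM in C646 (log2 fold change 3.03 ± 0.28, adjusted p = 4.53e-06). Of the kinases that act on MAF1 or on the enzyme, and their complex partners, 1 of 3 tested genes fell. It was MTOR, at −1.35 (adjusted p = 0.0075), while CSNK2A1, a catalytic subunit of casein kinase 2, stood at −0.70 (adjusted p = 0.00961). The MTOR call was lost without DMSO replicate 1, 2 or 3 or C646 replicate 2 or 3, with adjusted p-values from 0.0124 to 0.0476, and with the replicate block (log2 fold change −1.34, adjusted p = 0.0102). It was also lost with TMM on the T > C reads (−0.50, adjusted p = 0.385), with DESeq2 size factors from them (−0.54, adjusted p = 0.347) and with all filtered reads (−1.15, adjusted p = 0.0267). In all reads the 6 lists held 3 genes called lower (POLR1C, MEPCE and RPP25) and 4 called higher (SNAPC1, SSB, TSEN15 and CSNK2A2) of 51 tested, beside 1.88% lower and 5.89% higher over all genes. The RPP25 call in all reads was lost without DMSO replicate 1 (adjusted p = 0.0106), C646 replicate 2 (adjusted p = 0.0114) or C646 replicate 3 (log2 fold change −0.99).

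Subunits particular to polymerases I and II were read beside these, where 33.0% of all genes tested fell and 2.97% were called higher, with a median of −0.83. For polymerase I, 4 of 5 tested genes fell (POLR1A, POLR1B, POLR1E and POLR1G), of which POLR1A and POLR1E were above the filter on low values in DMSO libraries only. For polymerase II, 4 of 7 fell (POLR2C, POLR2D, POLR2G and POLR2I) and POLR2M was called higher, with a median of −1.04. POLR2M stood at 1.003, close to the least fold for a call, and with plain totals no polymerase II gene was called higher. In the polymerase III set 4 of 8 fell, with a median of −0.98. No test of these differences between lists was made.

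The size and the sign of the changes in T > C reads depend on how the libraries are scaled. Scaled by all reads, as above, 2550 genes were called lower and 229 higher. Scaled by TMM on the T > C reads themselves, which sets the middle of all genes near 0 (median 0.01), 601 were called lower and 713 higher, and 1 polymerase III gene remained called, POLR3K at −1.05, beside 7.78% of all genes. POLR3D stood at −1.10 (adjusted p = 0.0313), POLR3B at −0.73 and POLR3A at −0.28, while MAF1 (0.44), POLR3GL (0.17) and POLR3C (0.04) were above 0 and POLR3F at −0.00. Of the 43 genes in the lists of partners, 9 were then called lower and 3 higher (BRF2, GTF3C3 and TSEN15), of the 5 polymerase I subunits 2 lower (POLR1B and POLR1G), and of the 7 polymerase II subunits 0 lower and 2 higher (POLR2B and POLR2M). The median of the 8 genes was −0.15 relative to that of all genes under the first scaling and −0.16 under the second. In the ranking of all tested genes from the lowest fold change up, POLR3D stood at the percentile 12.7, POLR3K at 13.9, POLR3B at 21.1 and POLR3A at 37.1, with POLR3F at 49.5, POLR3C at 51.5, POLR3GL at 58.0 and MAF1 at 69.2.

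**Figure D4:**
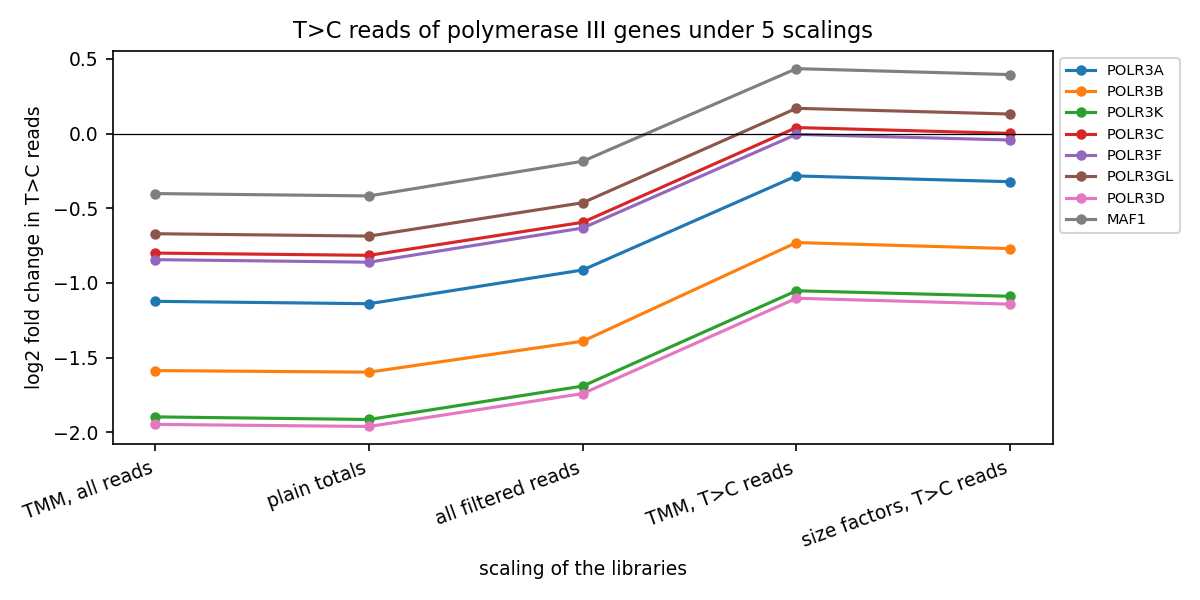
Log2 fold change in T > C reads of the 8 genes (1 line each) under 5 scalings of the libraries. The lines shift together by nearly the same amount and keep their order, with POLR3D and POLR3K close together at the bottom, and MAF1, POLR3GL and POLR3C cross 0 when the T > C reads are scaled on themselves.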

How the data were processed

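The authors labelled and alkylated the RNA, made 3′ end libraries and mapped the reads with SLAM-Dunk 0.4.1 to the GRCh38 genome. Per the file headers, 1 table per library lists 58136 3′ UTR entries with their raw counts, not normalized by the authors: reads of any kind, T > C reads, conversions and reads that map to several places. The tables also hold a signal, the coverage of T positions, and CPM values, which the authors' software scaled by all filtered reads. The deposited conversion rates (fraction) were not used, since they were computed again from conversions and coverage. T > C reads here include reads with 1 conversion, whereas the methods of the study name a stricter minimum for its own test. In the C646 replicate 3 table every T base number is 0, and it was not used there.

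Counts were summed per gene; 25310 of 25420 Entrez identifiers matched a symbol. Genes kept by filterByExpr were tested with edgeR 4.0.16 in R 4.3.3 (glmQLFit, glmQLFTest, Benjamini-Hochberg over all genes tested). T > C reads were scaled by each library's total on 3′ UTRs (all reads) times its TMM factor, and CPM in the text use the same totals. The odds model held T > C and other reads with a factor for each library and a T > C by treatment term. Calls needed a log2 fold change of 1 or more in size at an adjusted p of 0.01 or less. Exact permutation tests were two-sided. Log ratios of T > C reads used a pseudocount of 0.5 reads. Plots and summaries used Python 3.11.15, pandas 2.3.3, numpy 2.4.6 and matplotlib 3.10.9, and the fits were tested on simulated data.

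Libraries were grouped by their labels. The genes and lists were chosen with earlier results of these data known. Named are all 9 genes, POLR3G and CRCP, and of each list the tested genes with the lowest and highest fold change in T > C reads and those called higher; other genes were named after their values were seen. An item that the rule would name is not reported here. Gene by gene, the T > C reads per library set the precision. Replicates differed by 7.51 to 25.9 times the noise of counting (chi-square over its degrees of freedom), so no library was counted as a second deposit of another. Alternatives were other scalings, DESeq2 1.42.0, other filters and cutoffs, single or unrepeated 3′ UTR entries, multimapped reads subtracted, a replicate block and each library left out.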

Additional observations from a re-analysis of the deposited data

How the results depend on the processing

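Of the alternatives for the T > C reads, those that scale the libraries otherwise moved the results most. The 4 genes called became 1 with TMM on these reads and 1 with size factors of DESeq2 computed from them, where the median log2 fold change went from −0.98 to −0.14 and −0.18, and 2 with all filtered reads, where 7.78%, 8.3% and 24.6% of all genes tested were called lower. MAF1 reversed to 0.44 and 0.40, POLR3C to 0.041 and 0.0018, and POLR3GL to 0.17 and 0.13 under the first 2 scalings. In these, POLR2H reversed to 0.81 and 0.77, SNAPC1 to 0.73 and 0.70 and CSNK2A1 to 0.14 and 0.10, and with all filtered reads POLR2H to 0.17 and SNAPC1 to 0.10. With at least 50 reads per library only 2 of the genes could be tested in T > C reads, 1 call remained (36.6% of all genes), and the odds gave 1 call (41.8% of all genes) with a median of −1.13. In all reads the median of −0.36 became −0.15 with all filtered reads, where CSNK2A1 reversed to 0.20 and MTOR to 0.011, and POLR3GL reversed to −0.00040 with plain totals.

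Leaving out 1 library at a time gave 2 to 3 calls in T > C reads (2 without DMSO replicate 1 or 2), 0 in all reads and 1 to 2 in the odds, where 24.9% to 31.9%, 1.07% to 2.89% and 26.4% to 36.3% of all genes tested were called lower. Over these fits POLR2H ran from −0.14 to 0.074 in T > C reads, −0.0029 to 0.078 in all reads and −0.18 to 0.043 in the odds, SNAPC1 from −0.42 to 0.12 in T > C reads, and in all reads CSNK2A1 from −0.13 to 0.10, MAF1 from −0.073 to 0.26 and POLR3GL from −0.069 to 0.14. The DESeq2 Wald test called 3 genes in T > C reads, where it called 31.7% of all genes lower. Same-numbered libraries were not taken as pairs, since their deviations correlated at only 0.03 to 0.07 in T > C reads and −0.00 to 0.23 in all reads, although in T > C reads each library correlated best with its own number. With the replicate block the calls were 4, 0 and 2 (33.5%, 2.15% and 35.7% of all genes) and the medians −0.999, −0.35 and −0.76.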
